A study of Mus musculus with 6 samples.

Results

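The Proximal sub1 cells are 531 proximal tubule cells of the mouse kidney, out of 22154 single cells in all. They were chosen by 2 labels of the authors' annotation, the class Proximal s1/s2/s3 and, in a second clustering, the cluster Proximal sub1. The other 2242 cells of the class lay in another cluster of that second clustering and served as the comparison, with the classes Proximal s1/s2 (2966 cells) and Proximal s2/s3 (4475 cells) as outer points of reference. In terms of genes, most Proximal sub1 cells carried much of their counts in Kap, beside late-segment transporters, while early-segment transporters such as Slc5a2 were still present.

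The study asked how nephron segments adapt to furosemide, a loop diuretic that blocks sodium, potassium and chloride uptake in the thick ascending limb (TAL). Furosemide was given at 70 mg/kg body weight to 3 samples, and vehicle to 3 samples, for 1 week in a gel diet. All mice were wild-type C57BL/6J, aged 16 weeks, and both diets held 104 µmol sodium per kcal. Kidney cells were captured on BD Rhapsody beads, and 456 genes are in the deposited table, so that every level here is a share of the counts of those genes (CPM, counts per 1000000 counts of the panel). Libraries 2, 4 and 6 came from furosemide mice and held 68, 108 and 49 Proximal sub1 cells. Libraries 1, 3 and 5 came from vehicle mice and held 102, 101 and 103.

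The proximal tubule reclaims most of the filtered sodium, glucose, phosphate and bicarbonate, makes glucose and ammonia, and secretes organic anions. Its segments run from S1 through S2 to S3: the glucose carrier Slc5a2 belongs to the early part, and the amino acid carrier Slc7a13 and the fatty acid activating enzyme Acsm3 to S3. Kap, the kidney androgen-regulated protein, is an abundant transcript of the mouse proximal tubule whose level depends on androgen and on segment.

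The 3 marker genes given for these cells, Gatm (creatine precursor synthesis), Ugt3a2 (a glycosyltransferase) and Slc4a4 (the basolateral sodium bicarbonate carrier), marked proximal cells but did not set the Proximal sub1 cells apart within their class. All 3 were lower in them than in the other Proximal s1/s2/s3 cells in all 6 libraries, though for Ugt3a2 the mean log2 ratio turned to 0.070 with Kap left out of the totals. Gatm averaged 152 ± 55.3 CPM in Proximal sub1 cells and 528 ± 103 CPM in the others, Slc4a4 2827 ± 292 and 6784 ± 874 CPM, and Ugt3a2 3640 ± 316 and 5110 ± 458 CPM (SD, n = 6 libraries). Against a segment that should lack them the markers were clear: Slc4a4 had a count in 95.7% of Proximal sub1 cells (88.4% after thinning each cell to 1000 counts) and in 6.43% of TAL cells, and Ugt3a2 in 93.8% (thinned 89.96%) and 2.11%. The median cell held 1761 counts among Proximal sub1 cells and 1501.5 among TAL cells. The name of the cells is therefore used here only as the authors' label.

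Of the marker lists of other cell types, some summed to levels well above 0, each with 1 gene that held most of its sum. The 7 TAL markers summed to 2995 to 3318 CPM in Proximal sub1 cells of furosemide libraries and to 3492 to 3677 CPM in those of vehicle libraries, below the other cells of the class (4942 to 6097 and 5432 to 6034 CPM), and the claudin Cldn10 alone averaged 2887 CPM in Proximal sub1 cells. The 5 thin limb markers summed to 2828 to 3937 CPM with furosemide and 2727 to 4506 CPM with vehicle, against 2149 to 2850 and 2265 to 3033 CPM in the other cells, with the water channel Aqp1 at 3306 CPM. Aqp1 was also high in the outer proximal classes. With Kap left out of the totals its log2 CPM was 12.3 in Proximal sub1, 10.9 in Proximal s1/s2 and 12.3 in Proximal s2/s3 cells. The 4 connecting tubule markers summed to 967 to 2176 CPM with furosemide and 788 to 2044 CPM with vehicle, with the calcium-binding S100g at 1311 CPM. The part of RNA from such cells was not tested. Slc12a1, the furosemide target of the TAL, averaged 74.1 ± 23.8 CPM in Proximal sub1 cells and Umod, the main secreted protein of the TAL, 204 ± 65.9 CPM (SD, n = 6). A Umod count was present in 25.6% of Proximal sub1 cells, 23.7% of the other cells of the class and 23.2% of Proximal s1/s2 cells. The median cell of these sets held 1761, 1406 and 805.5 counts, so the like shares do not compare levels. The summed level of the 6 immune markers in the panel ran from 0 to 34.7 CPM in furosemide libraries and from 4.63 to 32.2 CPM in vehicle libraries, with C1qa, Lyz2 and Cd4 at 0. The podocyte gene Nphs1, the principal cell gene Aqp2 and the distal tubule gene Pvalb were at 0 in all 531 cells. Among these cells, 8 carried a barcode that also occurred in another library, as did 392 of all 22154 cells.

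The Proximal sub1 cells had fewer genes but more counts per cell than the others of their class. Their median was 1761 counts (from 373 to 7112) and 108 genes per cell, and that of the other cells was 1406 counts and 121 genes. Without Kap the order of the counts turned, with 1210 counts in the median Proximal sub1 cell and 1368 in the median other cell. Of the 456 genes, 363 had a count in at least 1 Proximal sub1 cell and 93 were at 0. The groups of cells were made from these same counts by the authors, so the levels below describe the cluster and carry no test.

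Kap was the gene with most counts. It averaged 336926 ± 10848 CPM in Proximal sub1 cells and 23394 ± 15422 CPM in the other cells of the class (SD, n = 6), a log2 ratio of 3.85. Proximal s1/s2 cells averaged 6067 CPM and Proximal s2/s3 cells 438616 CPM. In single cells Kap made up a median of 33.5% of counts, with quartiles of 23.5% and 39.4% and extremes of 0.142% and 59.6%. The medians by library were 30.7%, 35.1% and 31.6% in furosemide libraries and 32.7%, 33.6% and 32.8% in vehicle libraries. The other cells of the class had a median of 0.126%, and the Proximal s2/s3 cells one of 42.4%. TAL cells held 1683 ± 82.1 CPM of Kap in furosemide libraries and 2086 ± 301 CPM in vehicle libraries.

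**Figure D1:**
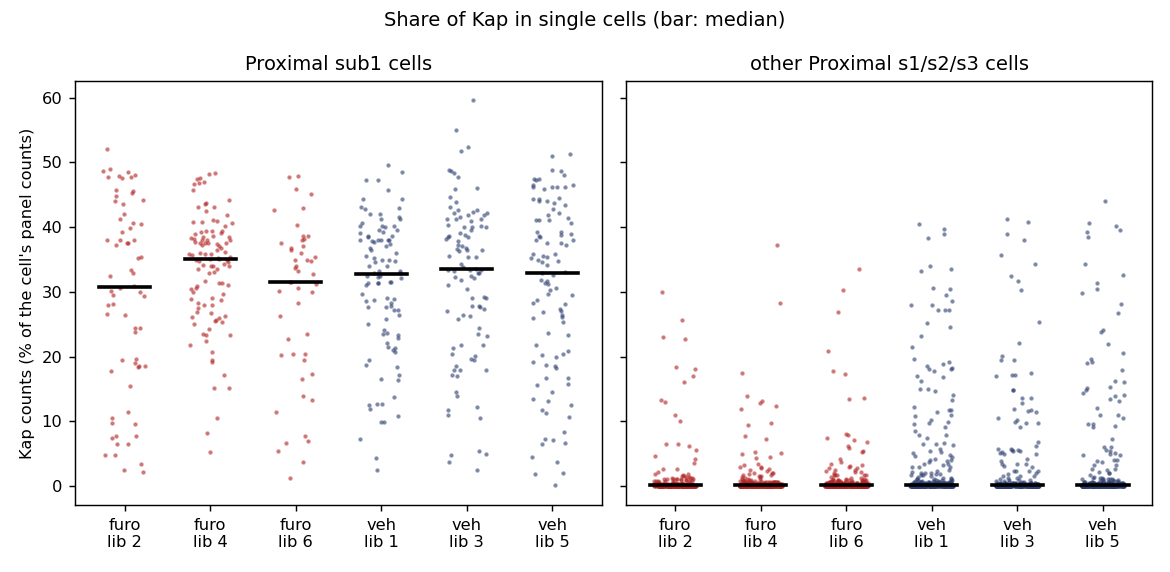
Kap as a percentage of each cell's counts (vertical axis) by library, for the Proximal sub1 cells on the left and the other Proximal s1/s2/s3 cells on the right; points are cells, bars are medians, furosemide libraries are red and vehicle libraries blue. The medians of the Proximal sub1 cells lie between 30.7% and 35.1% in all 6 libraries, while the upper tail of the other cells is fuller in the vehicle libraries.

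Transporters and enzymes of the late proximal tubule were higher in the Proximal sub1 cells. Slc7a13, the S3 carrier of acidic amino acids, averaged 864 ± 324 CPM in them, 80.2 ± 11.7 CPM in the other cells of the class and 10621 CPM in Proximal s2/s3 cells. Acsm3 averaged 145 ± 33.6 CPM in Proximal sub1 cells and 11.6 ± 5.89 CPM in the others, with 1463 CPM in Proximal s2/s3 cells. Both were thus more than 10-fold over the rest of the class and about as far again under the Proximal s2/s3 class.

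Slc5a10, a sodium-coupled sugar carrier, averaged 1661 ± 1069 CPM in Proximal sub1 cells and 192 ± 156 CPM in the others. It varied by library: 1190, 1071 and 3423 CPM in Proximal sub1 cells of furosemide libraries 2, 4 and 6, and 1043, 711 and 2527 CPM in those of vehicle libraries 1, 3 and 5. Libraries 6 and 5 were the high ones, and the same libraries were highest in the other cells, at 438 and 323 CPM. Ace, the angiotensin-converting enzyme of the brush border, averaged 125 ± 25.2 CPM in Proximal sub1 cells and 28.8 ± 8.76 CPM in the others. Tmigd1, a membrane adhesion protein, Napsa, an aspartic protease, and Lpl, the lipoprotein lipase, had log2 ratios of 2.07, 1.66 and 1.60.

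Several genes of drug and xenobiotic handling were near or above the level of the Proximal s2/s3 cells with Kap in the totals. Cyp2e1, a cytochrome P450, averaged 20085 ± 2081 CPM in Proximal sub1 cells and 7765 ± 2049 CPM in the others, with 19886 CPM in Proximal s2/s3 cells. Slc22a6, the organic anion transporter OAT1, averaged 7097 ± 734 CPM in Proximal sub1 cells, 2878 ± 372 CPM in the others and 7337 CPM in Proximal s2/s3 cells. Slc13a3, the dicarboxylate carrier that works with the organic anion transporters, averaged 7690 ± 485 CPM in Proximal sub1 cells, above the 3425 ± 451 CPM of the others and the 6440 CPM of Proximal s2/s3 cells. Inmt, an amine methyltransferase, Acy3, an aminoacylase, and Adh1, an alcohol dehydrogenase, had log2 ratios of 1.18, 1.00 and 0.92, and Ly6e, a surface protein, 1.23. Of 8 conjugation and oxidation genes in the panel, 5 were higher and 3 lower in Proximal sub1 cells, with a median log2 ratio of 0.38.

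Several early-segment transporters were lower but present. Of 10 Proximal S1/S2 markers in the panel, 8 were lower in Proximal sub1 cells and 2, Slc22a6 and Slc13a3, were higher. In these data both of the latter were higher in Proximal s2/s3 than in Proximal s1/s2 cells, by log2 differences of 2.85 and 1.98 with Kap left out. The median log2 ratio of the 10 markers was -1.22 (-0.66 with Kap left out of the totals). All 5 Proximal S3 markers past a level of 100 CPM in either set of cells were higher (median 1.37). Over all 216 genes past that level, 22 were higher and 194 lower, so that 8 lower of 10 S1/S2 markers is no greater a share. Slc5a2, the glucose carrier SGLT2, averaged 10109 ± 1664 CPM in Proximal sub1 cells, 29339 ± 3201 CPM in the others and 1486 CPM in Proximal s2/s3 cells. A Slc5a2 count was found in 98.9% of Proximal sub1 cells (thinned 96.9%), 41.4% of Proximal s2/s3 cells and 8.08% of TAL cells. Slc34a3, a sodium phosphate cotransporter, averaged 275 ± 74.6 CPM in Proximal sub1 cells and 2878 ± 418 CPM in the others, with 29.3 CPM in Proximal s2/s3 cells. It had a count in 31.8% of Proximal sub1 cells (thinned 18.5%), 85.9% of the others (thinned 86.0%) and 1.12% of TAL cells. Of the 7 sodium, phosphate and glucose transport genes that passed the level minimum of 100 CPM in either set of cells, 1 was higher and 6 were lower in Proximal sub1 cells, a share no greater than the 194 lower of all 216 genes past the minimum.

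Injury, stress and immediate early genes were lower as well. Spp1, the secreted phosphoprotein osteopontin, averaged 2009 ± 901 CPM in Proximal sub1 cells and 22499 ± 3313 CPM in the others (log2 ratio -3.49). All 4 injury genes, all 5 immediate early genes and all 4 heat shock and endoplasmic reticulum stress genes past the minimum were lower in Proximal sub1 cells, with median log2 ratios of -1.90, -1.39 and -1.12 (-1.34, -0.83 and -0.57 with Kap left out of the totals). Over all 216 genes past the minimum 194 were lower, with a median of -0.88 (-0.32 with Kap left out), so that the counts alone are near those of all genes. Fos averaged 8271 ± 1663 CPM in Proximal sub1 cells and 21607 CPM in the others, and Egr1 783 ± 241 and 2929 CPM. Havcr1 and Lcn2, the injury markers KIM-1 and NGAL, had a count in 2.07% and 0.94% of Proximal sub1 cells and in 2.01% and 0.89% of the others. Among TAL cells, 0.12% had a Havcr1 count and 28.2% an Lcn2 count.

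The 10 largest deficits were those of Ptgds, Trf, Sparc, C3, H2-Aa, Apoe, Spp1, Slc34a3, Cryab and Cd74. Among them, Apoe (lipid transport) averaged 18.9 ± 23.6 CPM in Proximal sub1 cells and 246 ± 71.5 CPM in the others, Trf (transferrin) 15.2 ± 12.1 and 366 ± 147 CPM, and the complement gene C3 12.1 ± 8.92 and 228 ± 158 CPM. The low levels of H2-Aa and Cd74, 2 genes of antigen presentation, were 17.0 ± 22.7 and 14.7 ± 12.5 CPM in Proximal sub1 cells and 221 ± 152 and 101 ± 45.3 CPM in the others.

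**Figure D2:**
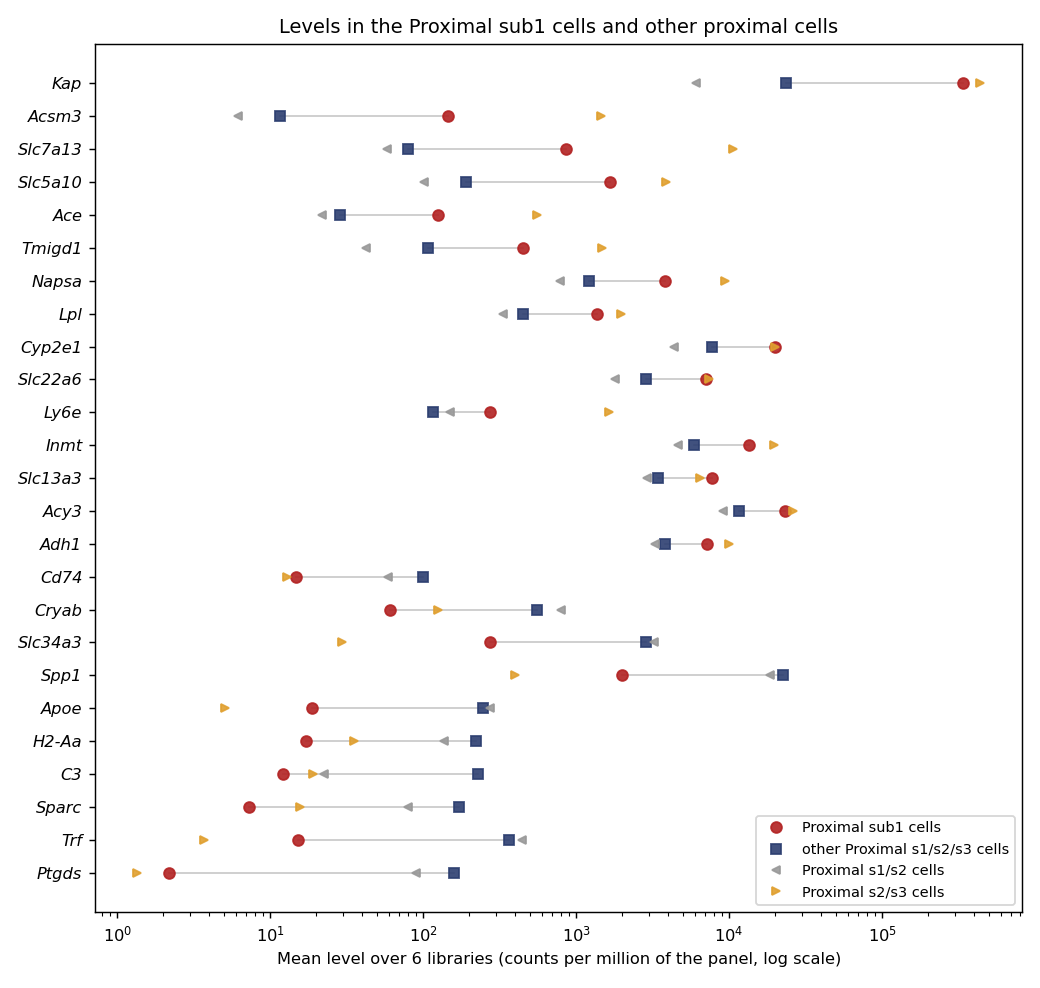
Mean level over 6 libraries (horizontal axis, CPM, log scale) of the 15 genes with the highest and the 10 with the lowest log2 ratio between Proximal sub1 cells and the other Proximal s1/s2/s3 cells, ordered from the highest ratio at the top. Grey lines join both sets of cells, and triangles mark the Proximal s1/s2 and Proximal s2/s3 classes; for most genes the Proximal sub1 cells lie on the side of the Proximal s2/s3 class.

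The large share of Kap lowers every other gene's share of a cell. Of 216 genes past the level minimum, 22 were higher and 194 lower in Proximal sub1 cells by their mean, 20 and 181 of them in all 6 libraries, with a median log2 ratio of -0.88. With Kap left out of the totals, 44 were higher and 171 lower, the median was -0.32 and 23 genes changed sign. Among the named genes, Ugt3a2 (0.070), Glyat (glycine conjugation, 0.039), Pck1 (gluconeogenesis, 0.011) and Tmbim6 (a cell death suppressor of the endoplasmic reticulum, 0.39) turned to slightly higher. Gatm (-1.23), Slc4a4 (-0.70), Slc5a2 (-0.98) and Spp1 (-2.93) stayed lower. Among the genes with most counts after Kap, with no correction for length, were Gpx1, Tmbim6, Cyp4b1, Pck1, Acy3, Cyp2e1, Glyat and Slc27a2 (a fatty acid transport protein).

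Placed between the outer classes, the Proximal sub1 cells were nearer to Proximal s2/s3. With Kap left out, 29 genes were higher and 42 lower in Proximal s2/s3 cells than in Proximal s1/s2 cells by a log2 difference of at least 1. For the 29 higher genes the Proximal sub1 level lay at a median of 65.1% of the way from Proximal s1/s2 to Proximal s2/s3, between both classes for 26 and beyond Proximal s2/s3 for 3 (Cdh1, Cyp4b1 and Slc13a3, each by under 1% of the way). For the 42 lower genes the median position was 60.5%, with 34 between and 8 beyond. The other Proximal s1/s2/s3 cells lay at 14.5% and 3.58%, close to Proximal s1/s2. The Proximal sub1 level lay farther along the way from Proximal s1/s2 than that of the other cells for 26 of the 29 and all 42 genes, counting those that went beyond Proximal s2/s3. Gatm, at 27.3%, and Slc5a2, at 32.8%, were among the genes that lay nearest to Proximal s1/s2.

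The cells also varied among themselves along this axis. Within each library, cells with a higher Kap share had a higher share of the 29 Proximal s2/s3 genes among their other counts, with Spearman coefficients of 0.73, 0.54 and 0.48 in furosemide libraries 2, 4 and 6 and of 0.71, 0.52 and 0.65 in vehicle libraries 1, 3 and 5. With the share of the 42 lower genes they were -0.72, -0.56 and -0.58 in furosemide libraries and -0.61, -0.55 and -0.67 in vehicle libraries. These coefficients are over the 49 to 108 cells of a library, which share that library and, in part, depth: the coefficient of the Kap share with a cell's other counts ran from 0.0086 to 0.40. The relation was not particular to these cells. For the 29 genes it was 0.54, 0.55 and 0.54 in Proximal s2/s3 cells of furosemide libraries 2, 4 and 6. In those of vehicle libraries 1, 3 and 5 it was 0.55, 0.45 and 0.65. In the other Proximal s1/s2/s3 cells it was lower, from 0.13 to 0.46. Among Proximal sub1 cells, the median share of the 29 genes was 22.5% of counts other than Kap in the 491 cells with at least 10% Kap and 15.2% in the 40 cells below 10%. Those 40 cells were also shallower, with a median of 1130.5 counts against 1864 in the 491. The 10% line was drawn after the values had been seen.

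The share of Proximal sub1 cells did not differ between treatments beyond the spread between libraries. They made up 18.6%, 23.2% and 10.2% of Proximal s1/s2/s3 cells in furosemide libraries 2, 4 and 6, and 19.9%, 21.0% and 22.0% in vehicle libraries 1, 3 and 5. Furosemide library 6 was lowest, with a 95% Wilson interval of 7.78 to 13.2% (counting error only), furosemide library 4 was highest, and the groups overlapped. The means were 17.3 ± 6.60% with furosemide and 21.0 ± 1.04% with vehicle (SD, n = 3 each; difference -3.67 percentage points, two-sided exact permutation test, p = 0.5). Without furosemide library 6 the difference was -0.088 points, and without furosemide library 4 it was -6.59 points.

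Of all cells, the share was 2.23%, 2.43% and 1.37% with furosemide and 2.50%, 3.05% and 2.80% with vehicle. Here the groups did not overlap, with means of 2.01 ± 0.566% and 2.78 ± 0.274%, and the exact test gave p = 0.1, the smallest p that 3 against 3 libraries allow. Cell numbers in the deposited table had been made equal by the authors, per the file names. The totals were equal between the treatments but not between libraries, with 3051, 4439 and 3587 cells with furosemide and 4082, 3316 and 3679 with vehicle. Shares of all cells also depend on how every other cell type was recovered.

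**Figure D3:**
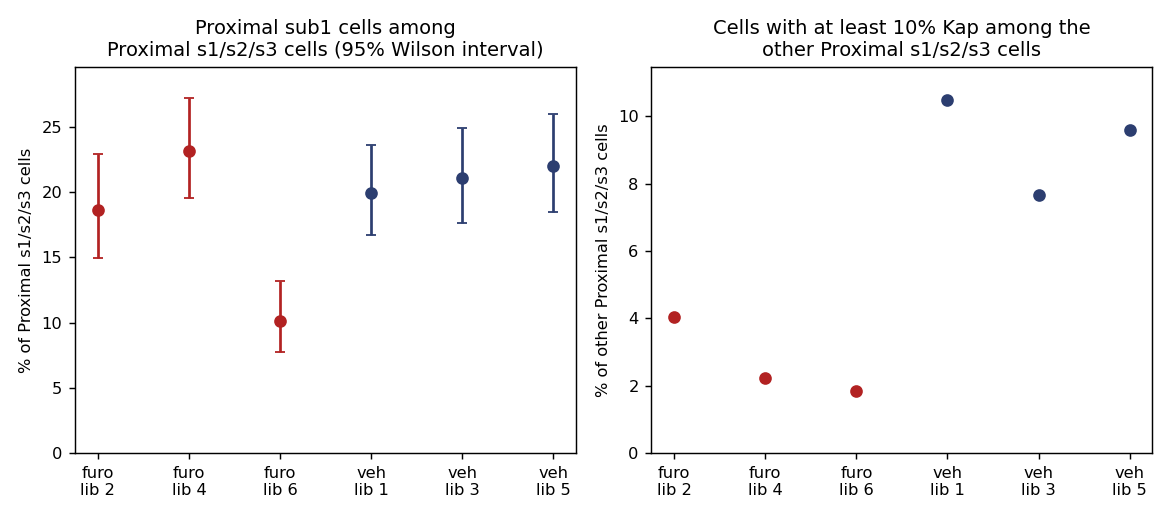
Left, Proximal sub1 cells as a percentage of Proximal s1/s2/s3 cells by library, with 95% Wilson intervals; right, cells with at least 10% Kap as a percentage of the other Proximal s1/s2/s3 cells by library. Furosemide libraries (red) overlap vehicle libraries (blue) on the left, and lie between 1.85% and 4.04% on the right, below the 7.65 to 10.5% of the vehicle libraries.

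Depth per cell was lower on average with furosemide. The median Proximal sub1 cell held 1652, 1672 and 1488 counts in furosemide libraries and 1978.5, 2145 and 1643 in vehicle libraries. The groups overlapped through vehicle library 5, and the means of 1604 ± 101 and 1922 ± 256 did not differ beyond that spread (SD, n = 3 each; two-sided exact permutation test, p = 0.3). Counts summed over Proximal sub1 cells came to 81796 to 201722 per furosemide library and 186402 to 230618 per vehicle library.

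For the treatment effect per gene, these sums were compared between libraries with edgeR's quasi-likelihood test. None of 205 genes tested passed an adjusted p of 0.05 in the Proximal sub1 cells (0% called; smallest adjusted p = 0.263). At an unadjusted p under 0.05 there were 20 genes (9.76%), 7 higher (3.41%) and 13 lower (6.34%). DESeq2 called 1 gene, Hspa1a, and limma-voom called none. The libraries of both treatments did not overlap for 33 genes (16.1%), 12 higher (5.85%) and 21 lower (10.2%). The median standard error of a log2 fold change was 0.24, with smaller errors for genes of many counts, such as 0.06 for Kap.

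The 5 genes with the smallest p among lower estimates were Pik3ca, Hspa1a, Nfat5, Dnajb1 and Slc16a10. Hspa1a, the inducible heat shock protein 70, had 173, 97.3 and 86.5 CPM in furosemide libraries 2, 4 and 6, and 460, 585 and 240 CPM in vehicle libraries 1, 3 and 5. All furosemide libraries lay below all vehicle libraries, and the log2 fold change was -1.84 ± 0.42 (SE, n = 3 each; edgeR, adjusted p = 0.263; DESeq2, -1.81, adjusted p = 0.0114). Across the 15 alternative settings it ran from -2.18 to -1.47, and the adjusted p from 0.0114 to 0.842. Its estimate in the other Proximal s1/s2/s3 cells was -1.44, also short of the threshold, and the difference between both sets was -0.46 ± 0.42 (edgeR, adjusted p = 0.975).

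Dnajb1, a co-chaperone of the heat shock proteins, had 181, 323 and 259 CPM with furosemide and 550, 464 and 437 CPM with vehicle (log2 fold change -0.91). Nfat5, the transcription factor of the response to high tonicity, had 24.7, 41.0 and 37.1 CPM with furosemide and 107, 82.4 and 80.0 CPM with vehicle (-1.35). Its furosemide values rest on few counts each, as those libraries summed to 122681, 201722 and 81796 counts over all genes. Pik3ca, the catalytic subunit of phosphoinositide 3-kinase, had 66.0, 76.8 and 61.8 CPM with furosemide and 121, 156 and 133 CPM with vehicle (-0.96). For each of these the libraries did not overlap, and neither did they for Slc16a10, an aromatic amino acid carrier, at 218 ± 15.2 CPM with furosemide and 306 ± 29.2 CPM with vehicle (-0.50). None was called (edgeR, adjusted p from 0.263 to 0.468). These genes were picked by their small p, and 21 of all 205 genes (10.2%) stood apart on the lower side.

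Among higher estimates, Gpx1, the cytosolic glutathione peroxidase, had 54410, 64076 and 75909 CPM with furosemide and 46104, 49597 and 53269 CPM with vehicle. The groups stood apart by little, and the log2 fold change was 0.38 ± 0.13 (edgeR, adjusted p = 0.468). Col4a1, a basement membrane collagen, averaged 186 ± 27.0 CPM with furosemide and 124 ± 17.1 CPM with vehicle (0.60), and Itgb5, an integrin subunit, 367 ± 4.08 and 282 ± 4.33 CPM (0.38). Clu, the secreted chaperone clusterin, had 57.7, 102 and 98.8 CPM with furosemide and 49.2, 17.3 and 48.0 CPM with vehicle (1.20). Calb1, a calcium-binding protein of the distal nephron, had 66.0, 61.5 and 235 CPM with furosemide and 13.4, 13.0 and 53.3 CPM with vehicle (2.03). The lowest vehicle values of Clu and Calb1 rest on few counts each, at sums of 186402 to 230618 counts per vehicle library. Calb1 had an estimate of 2.65 in the other cells of the class as well; whether RNA from distal cells plays a part in it was not tested.

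**Figure D4:**
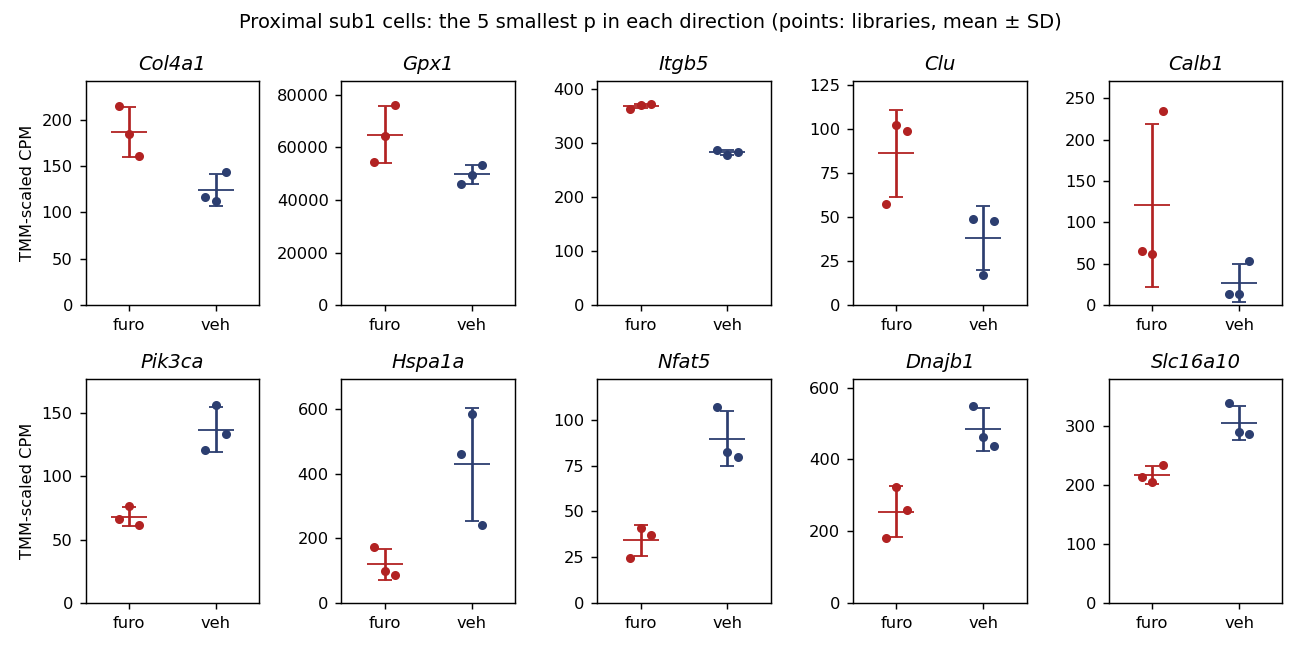
TMM-scaled CPM in the Proximal sub1 cells of each library (points) with mean ± SD for the 5 genes with the smallest p in each direction, furosemide on the left and vehicle on the right of each panel. No gene's furosemide libraries overlap its vehicle libraries, and none passed the adjusted threshold. The genes were picked by their p, and 33 of all 205 genes tested (16.1%) had libraries that did not overlap.

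Gene lists gave no called member in the Proximal sub1 cells. Of 8 sodium, phosphate and glucose transport genes tested, 6 had estimates below 0 and the median was -0.20, against a median of -0.00 over all 205 genes. The libraries of 4 of them did not overlap, all lower with furosemide, as for 21 of all 205 genes (10.2%): Atp1b1, Slc34a3, Slc2a2 and Slc4a4, picked out here after their values were seen. Atp1b1, the beta subunit of the sodium pump, had 7001, 6357 and 6523 CPM with furosemide and 8273, 8739 and 7964 CPM with vehicle (log2 fold change -0.33 ± 0.12; edgeR, adjusted p = 0.468). Slc34a3 had 297, 164 and 210 CPM with furosemide and 331, 334 and 309 CPM with vehicle (-0.56), and Slc2a2, the basolateral glucose carrier, averaged 2059 ± 91.3 and 2492 ± 119 CPM (-0.28). In the other cells of the class the same list had 3 of 8 estimates below 0 and no gene whose libraries stood apart, where 34 of all 275 genes tested (12.4%) did.

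The other lists held few genes each. All 5 organic ion and amino acid transport genes tested had estimates above 0 (median 0.15), as did all 3 antioxidant genes (median 0.38). The conjugation and oxidation genes had 6 of 8 estimates above 0 (median 0.22), with Inmt apart on the higher side and Ugt3a2 on the lower. Below 0 lay 6 of 7 growth and cell cycle genes (median -0.23), 3 of 4 heat shock and endoplasmic reticulum stress genes (median -0.40), 4 of 5 immediate early genes (median -0.10), 3 of 4 gluconeogenesis and ammonia genes (median -0.06), 3 of 5 insulin-like growth factor genes (median -0.12) and 3 of 4 renin-angiotensin genes (median -0.12). The injury list had 2 of 3 estimates above 0, the lipid list 1 of 2, and no gene of the endocytosis list is in the panel. Mki67, a proliferation marker, had no count in any of the 225 furosemide and 306 vehicle cells. With 3 cells taken as the limit, that allows a share of cells with a count of up to 1.33% and 0.98%. This limit pools the cells of the libraries as if each were independent. Birc5, another division marker, had a count in 2 furosemide and 5 vehicle cells.

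Kap did not pass the test in the Proximal sub1 cells and fell with furosemide in the rest of the class. In Proximal sub1 cells it had 341595, 357605 and 319005 TMM-scaled CPM in furosemide libraries and 326243, 341462 and 340142 in vehicle libraries. The groups overlapped, and the log2 fold change was 0.01 ± 0.06 (SE; 95% interval -0.12 to 0.15; edgeR, adjusted p = 0.922). Over the alternative settings the estimate lay between -0.036 and 0.059, on either side of 0.

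In the other Proximal s1/s2/s3 cells Kap had 12973, 7631 and 10305 CPM in furosemide libraries and 42210, 27391 and 39399 CPM in vehicle libraries. All furosemide libraries lay below all vehicle libraries, and Kap fell by 1.82 ± 0.25 on the log2 scale (SE; edgeR, adjusted p = 0.037). It was the 1 gene called among 275 tested (0.364%). The call was lost without furosemide library 4 (-1.66, adjusted p = 0.0553), furosemide library 6 (-1.83, 0.174), vehicle library 1 (-1.73, 0.0915) or vehicle library 5 (-1.78, 0.104), and without the 5% of cells with the highest totals (-1.53, 0.0812). In TAL cells the means of Kap were 1683 CPM with furosemide and 2086 CPM with vehicle.

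The difference of both effects was tested as an interaction in 1 model over both sets of cells, with library as a block. Of 265 genes, 1 was called (0.377%), Kap, whose furosemide effect was higher in Proximal sub1 cells by 1.87 ± 0.23 on the log2 scale (SE; 95% interval 1.36 to 2.39; edgeR, adjusted p = 0.00254). It was past the threshold in each of the 6 fits that left out a library, with values from 1.64 to 2.14. With limma on the differences within libraries the size was 1.87 and the adjusted p 0.223. Set against all other proximal cells, in which the Proximal s2/s3 class supplies most of the Kap counts, the difference was -0.27 (edgeR, adjusted p = 1.00). Both sets share their libraries, and both were cut from the same cells by a clustering of their counts, so that a change of Kap within cells and a move of cells across the border between clusters cannot be told apart by this comparison.

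**Figure D5:**
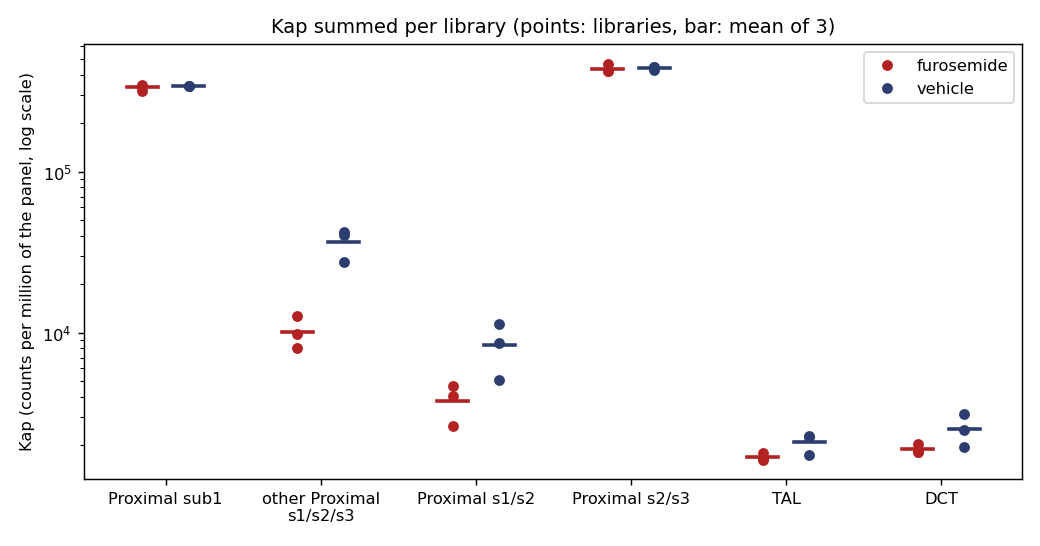
Kap summed per library in CPM (log scale) for the Proximal sub1 cells, the other Proximal s1/s2/s3 cells, the classes Proximal s1/s2 and Proximal s2/s3, and TAL and DCT (distal convoluted tubule) cells; points are libraries, bars the means of 3, furosemide red and left of vehicle in blue. Treatments overlap in the Proximal sub1 cells, whose mean over 6 libraries is 336926 CPM, and stand apart in the other Proximal s1/s2/s3 cells and in the class Proximal s1/s2.

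The Kap values of the clusters overlapped: 40 Proximal sub1 cells had under 10% Kap, 20 with furosemide and 20 with vehicle, and 135 of the other cells had at least 10%, 28 with furosemide and 107 with vehicle. Those 135 cells made up 4.04%, 2.23% and 1.85% of the other cells in furosemide libraries and 10.5%, 7.65% and 9.59% in vehicle libraries. The groups did not overlap, with means of 2.71 ± 1.17% and 9.24 ± 1.45% (two-sided exact permutation test, p = 0.1, the smallest this design allows), and at a line of 5% Kap they were 4.41 ± 0.848% and 12.8 ± 1.44%.

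In the segment genes these 135 cells lay nearer to the Proximal sub1 cells than to the rest of their own cluster. The 29 genes higher in Proximal s2/s3 made up a median of 18.2% of their counts other than Kap, compared with 22.5% in the Proximal sub1 cells past the same line and 8.18% in the other cells under it. The 42 lower genes made up 13.3%, 9.95% and 19.6% in the same order. The 135 cells were also the deepest of these sets, with median totals of 1990, 1864 and 1368 counts in that order. The part of depth in their profile was not tested. Cells of the whole class with at least 10% Kap were 17.9 ± 6.97% with furosemide and 26.9 ± 0.754% with vehicle (two-sided exact permutation test, p = 0.1). Kap summed over the whole class had a log2 fold change of -0.59 ± 0.31 (edgeR, adjusted p = 0.725), which was not called, and neither were those in the classes Proximal s1/s2 (-1.15, adjusted p = 0.459) and Proximal s2/s3 (0.07, adjusted p = 0.926). In Proximal s1/s2 the libraries stood apart all the same, at 2646, 4671 and 4029 CPM with furosemide and 11341, 8597 and 5116 CPM with vehicle. Cells with at least 10% Kap were 0.752 ± 0.486% and 1.83 ± 0.732% of that class (two-sided exact permutation test, p = 0.1). The lower Kap with furosemide was thus not particular to the other Proximal s1/s2/s3 cells.

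Of the other genes with the smallest p for a difference of effects, none was called. Col4a1 had an effect of 0.60 in Proximal sub1 cells and of -0.26 in the others (difference 0.89 ± 0.25; edgeR, adjusted p = 0.402). Cxcl1, a neutrophil chemokine, had effects of 0.18 and -0.53 (0.83), but its difference was -0.089 against all other proximal cells. On the lower side, Igfbp1, a binding protein of insulin-like growth factors, had effects of -0.60 and 0.72 (-1.28), Slc34a3 of -0.56 and 0.24 (-0.81), and the transcription factor Stat3 of -0.75 and 0.23 (-1.02). Igfbp1 libraries of both treatments overlapped in Proximal sub1 cells, at 173, 149 and 148 CPM with furosemide and 147, 282 and 288 CPM with vehicle.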

How the data were processed

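Kidney cells of 6 mouse samples were measured with BD Rhapsody whole-transcriptome and targeted assays, per the labels' protocols. The deposited count table holds whole-number counts for 22154 cells and 456 genes. Doublets and a mixed cluster had been removed by the authors and cell numbers made equal, per the file names. The numbers were equal between treatments and not between libraries. Bowtie2 2.2.9 was used, per the submitters' processing notes. How reads became counts, and on which build, is not given in the sources used here. Library, treatment, class and cluster of each cell come from the deposited annotation, whose columns hold other, non-numeric values.

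Library numbers could not be joined to replicate numbers of the titles, so each sample is called by its treatment and its library number. The labels do not say that each sample was a separate animal, so p-values measure only the variation among the 6 samples, which may be technical.

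For each set of cells, counts were added up within a library and the sums tested with edgeR 4.0.16 in R 4.3.3 (TMM, filterByExpr, glmQLFit, glmQLFTest, Benjamini-Hochberg adjustment over all genes tested). The difference of effects had library as a block. Unscaled CPM describe levels, and TMM-scaled CPM stand beside treatment effects. DESeq2 1.42.0 and limma 3.58.1 were alternatives, and scripts were tested on simulated data. Shares were compared with exact permutation tests (SciPy 1.17.1).

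Named genes were those with the smallest p (5 per direction in Proximal sub1 cells, 3 per direction for the difference of effects), the 15 highest and 10 lowest level ratios past 100 CPM, the 10 highest levels, the given markers and a list of proximal genes. The members, lists and named genes were chosen with earlier results of these data known.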

Additional observations from a re-analysis of the deposited data

Results flagged for a closer look

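The furosemide effect on Kap differed between the Proximal sub1 cells and the other Proximal s1/s2/s3 cells by 1.87 ± 0.23 on the log2 scale, by a test of the difference itself (edgeR's quasi-likelihood test, adjusted p = 0.00254). The effect was 0.01 in Proximal sub1 cells and -1.82 in the other cells. In the other cells, 28 of the furosemide and 107 of the vehicle cells held at least 10% Kap, and their part in the difference was not tested. Both sets were cut from the same cells by a clustering of their counts. A change of Kap within cells and a move of cells between clusters therefore cannot be told apart here. Over the whole class the log2 fold change of Kap was -0.59 ± 0.31 (SE; edgeR, adjusted p = 0.725).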

How the results depend on the processing

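In the Proximal sub1 cells 0 genes were called under every alternative except DESeq2, which called 1 (Hspa1a), and at an unadjusted p under 0.05 the number of genes lay between 6 and 27. In the other Proximal s1/s2/s3 cells, where 1 gene was called, the number was 2 without a filter on low counts, 2 after thinning cells to 1000 counts, 3 with DESeq2, 0 without the top 5% of totals and 0 with Kap left out of the counts, and it ran from 0 to 1 over fits without 1 library. For the difference of effects it was 0 against all other proximal cells, 0 with limma on differences within libraries and 0 with Kap left out of the counts, and it ran from 1 to 2 over fits without 1 library. The alternative with Kap left out was added after seeing the data, and its 0 follows from removing the 1 called gene. The cause of the other changes was not tested.

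Signs turned for effects near 0. Kap in Proximal sub1 cells was -0.033 with library size alone, -0.010 with equal cell numbers, and -0.036 to 0.059 over fits without 1 library. Gatm in Proximal sub1 cells was 0.010 without the top 5% of totals, 0.40 after thinning, and -0.55 to 0.20 over fits without 1 library, above 0 without furosemide library 6 (0.14) or vehicle library 5 (0.20). Cxcl1 in Proximal sub1 cells was -0.11 (without vehicle library 5) to 0.58 over fits without 1 library. Against all other proximal cells the difference was -0.27 for Kap and -0.089 for Cxcl1. With Kap left out of totals, the level ratios of Glyat (0.039), Pck1 (0.011), Tmbim6 (0.39) and Ugt3a2 (0.070) turned positive.

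The share of Proximal sub1 cells differed by -6.59 to -0.088 percentage points over comparisons without 1 library, and kept its sign under the other denominators. No paired analysis was possible because library numbers could not be joined to the replicate numbers of the titles. The 49 to 108 cells per library limit what could be resolved in Proximal sub1 cells.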
